A study of Mus musculus with 30 samples.

Results

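The 10 genes described here encode angiogenic and growth factors that platelets are known to carry in their granules: Tgfb1, Pdgfa, Pdgfb, Angpt1, Vegfa, Vegfb, Vegfc, Igf1, Hgf and Egf. They were taken by name, matched to 1 Ensembl identifier each, and all 10 were found among the 54532 genes of both count tables. Their messenger RNA was counted in platelets and in peripheral blood mononuclear cells (PBMCs) of C57BL/6 mice, all female and 6 to 8 weeks old at the start, bled from the retro-orbital sinus on day 14 after a subcutaneous injection. The C group received saline (HBSS) alone, the S group 2000 B16F10 cells per mouse, a number too small to give a visible tumor by then, and the O group 100000 B16F10 cells per mouse, which formed large tumors. In the paper most mice given 2000 cells stayed free of visible tumors, and its S group pools held some that might never have formed any. S group thus stands for the injection and not for a known tumor in each mouse. B16F10 is a mouse melanoma cell line of C57BL/6 origin, and the study asked whether platelet RNA differs while a tumor is still occult. The labels name no transgene or deletion in any group.

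Each group and tissue had 5 libraries, and each library was made from RNA pooled over several mice. The labels give platelet pools of 10, 5, 5, 10 and 10 mice in C group, of 10 mice each in S group, and of 3, 4, 5, 3 and 5 mice in O group, whereas PBMC pools held 3 to 5 mice. For S group platelets the study's methods list slightly unequal pools instead. An error given here is therefore the spread between pools, and it came from larger pools in S group platelets than in O group platelets.

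A platelet has no nucleus, and its RNA is what the megakaryocyte, the large bone marrow cell that sheds platelets, leaves in it. Many growth factors are packed into the alpha granules of platelets and are released when platelets are activated, where they act on vessel walls, fibroblasts and tumor tissue. Some of these proteins are made by the megakaryocyte from its own mRNA, and others are taken up from plasma, so that a factor in the granule does not need a transcript in the platelet. The counts bear on the transcripts and not on the proteins.

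Total counts on genes ranged from 12259036 to 25360080 in platelet libraries and from 13390983 to 15973449 in PBMC libraries. Levels are given as CPM, counts per 1000000 counts of the library, after the TMM scaling of edgeR over all 30 libraries, on one scale for both tissues. The platelet libraries were not pure: 8 erythroid genes took 4.18% to 41.2% of their counts and 3.35% to 27.3% of those of PBMC libraries, and the summed level of 8 B cell markers was 811 to 2896 CPM in platelets and 1793 to 3662 CPM in PBMCs. In turn, 15 platelet and megakaryocyte markers summed to 17950 to 94770 CPM in platelets and to 623 to 7913 CPM in PBMCs, with Gp1bb the only one of them near 0 in the platelet libraries. Of 6 melanocyte markers, 5 had a mean under 0.3 CPM in both tissues, and Pmel averaged 2.97 CPM in platelets and 20.4 CPM in PBMCs. A PBMC library of S group, replicate 3, had counts on 32900 genes, against 20540 to 22991 in the other PBMC libraries, and platelet O group replicate 1 had the highest erythroid share. In bulk RNA, fewer cells of a type and less RNA per cell cannot be told apart.

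Sequence is shown for 3 of the members, chosen because their levels differed most between the tissues in either direction or because a well-counted gene on the opposite strand overlaps them. The windows come from RefSeq on build GRCm38.p6, run 5′ to 3′ on the strand of the gene, and were given for 8 of the 10 members in 12 windows of 300 bases, each reaching from 250 bases before an annotated start to 50 after it. Angpt1 and Pdgfb had no window. By gene identifier, Pdgfa spans chr5:138976014-138997370 on the minus strand of GRCm38, Igf1 chr10:87858265-87937042 and Hgf chr5:16553495-16620152, both on the plus strand, Angpt1 chr15:42424723-42676977 on the minus strand and Tgfb1 chr7:25687002-25705077 on the plus strand. In the window of Pdgfa the capitals mark the 20 bases from the start of the antisense gene 6330403L08Rik (138995056, plus strand) to a GENCODE start of Pdgfa (138995037, minus strand).
Pdgfa, chr5:138995037-138995194, minus strand: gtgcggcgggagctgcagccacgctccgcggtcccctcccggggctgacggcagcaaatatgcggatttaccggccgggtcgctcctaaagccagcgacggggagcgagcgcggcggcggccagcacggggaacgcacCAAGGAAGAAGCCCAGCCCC
The letters in front of the capitals are thus the first bases of 6330403L08Rik read from its opposite strand. In the windows of Igf1 and Hgf, the capitals mark hexamers of the GATA kind, searched on both strands as AGATAA, as its form with a last G, AGATAG, and as both forms with a first T, TGATAA or, with the last G, TGATAG. Factors of the GATA family bind such letters in megakaryocyte and erythroid genes.
Igf1, chr10:87860861-87861110, plus strand: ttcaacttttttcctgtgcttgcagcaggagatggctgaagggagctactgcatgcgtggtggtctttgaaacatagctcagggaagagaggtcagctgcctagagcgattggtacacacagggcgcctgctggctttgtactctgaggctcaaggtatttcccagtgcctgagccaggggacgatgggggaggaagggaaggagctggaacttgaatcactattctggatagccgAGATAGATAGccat
Hgf, chr5:16553245-16553494, plus strand: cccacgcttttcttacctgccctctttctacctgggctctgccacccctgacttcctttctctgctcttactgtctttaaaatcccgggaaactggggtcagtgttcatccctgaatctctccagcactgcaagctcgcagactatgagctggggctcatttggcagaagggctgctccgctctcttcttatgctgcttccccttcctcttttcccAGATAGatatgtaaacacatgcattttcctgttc
The 2 hexamers of Igf1 overlap by 2 bases. Such hexamers stood in 4 of the 12 member windows (also in 1 window each of Egf and Vegfa), and in 29.8% of the 32851 windows of all genes. They were present both in Igf1, which was higher in platelets, and in Hgf, which was lower, and they were not found in the GC-rich windows of Tgfb1, Pdgfa, Vegfb and Vegfc.

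Platelet transcripts of this family were dominated by 3 genes. Per kilobase of annotated exon, the platelet libraries held 115.7 ± 53.6 CPM of Tgfb1 (SD, n = 15 libraries), 31.4 ± 13.5 of Angpt1 and 17.6 ± 9.37 of Pdgfa. Tgfb1 encodes transforming growth factor beta 1, Angpt1 the ligand angiopoietin 1 that steadies vessels through the receptor Tek, and Pdgfa the A chain of platelet-derived growth factor. The levels of Angpt1 and Pdgfa overlapped within 1 SD, whereas Tgfb1 lay above Angpt1, and Pdgfa above the rest, by more than the summed SDs.

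A second tier was formed by Vegfb at 2.91 ± 1.10 and Pdgfb at 2.87 ± 0.624 CPM per kb, which could not be ordered. Below them stood Vegfc at 0.643 ± 0.244, Vegfa at 0.416 ± 0.266, Igf1 at 0.271 ± 0.102, Hgf at 0.123 ± 0.0912 and Egf at 0.0565 ± 0.0289 CPM per kb, and each of these 5 overlapped the next within 1 SD. These low genes rested on few reads, with at most 30 counts of Hgf and at most 19 counts of Egf in any platelet library.

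In PBMCs the order was another one. Tgfb1 again led with 39.5 ± 6.91 CPM per kb, and the next were Pdgfb at 2.23 ± 0.565, Vegfb at 2.18 ± 0.407, Angpt1 at 1.66 ± 0.686, Hgf at 1.05 ± 0.233, Pdgfa at 0.860 ± 0.299, Vegfc at 0.614 ± 0.170, Vegfa at 0.592 ± 0.337 and Egf at 0.228 ± 0.0617. From Pdgfb down to Egf, every gene overlapped the next within 1 SD. Igf1 came last at 0.00967 ± 0.0132 CPM per kb and had a count in 10 of the 15 PBMC libraries.

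**Figure D1:**
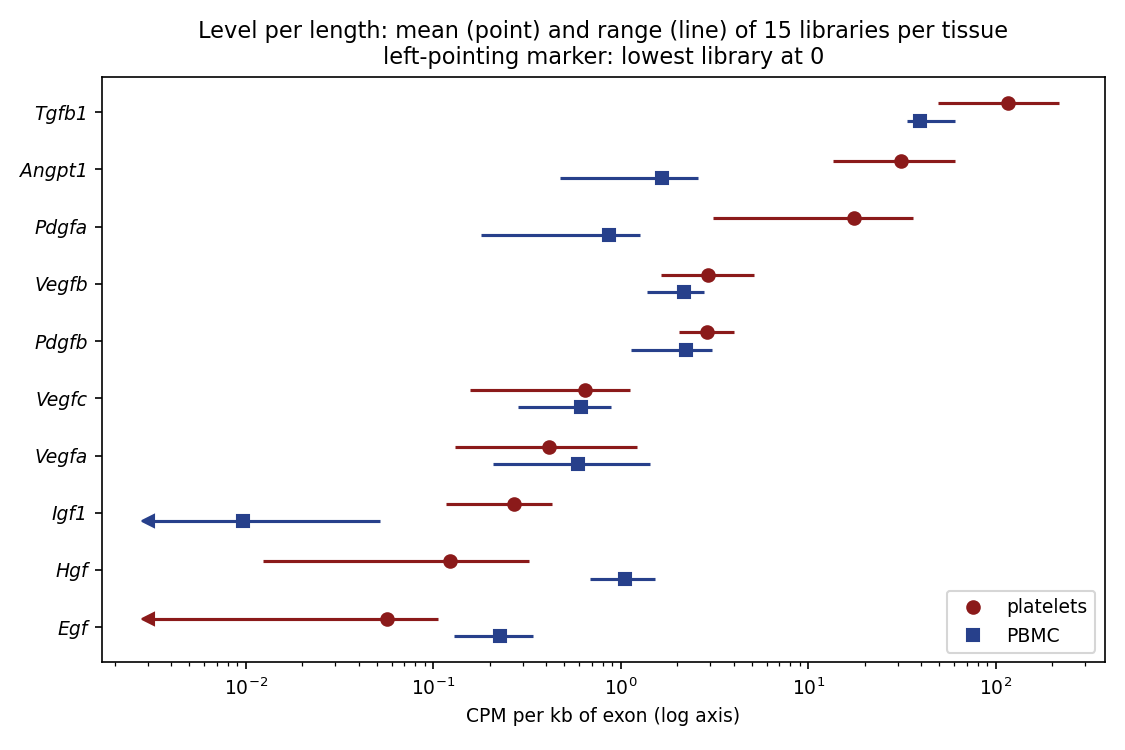
Level of each gene per kilobase of annotated exon (CPM per kb, log axis) in 15 platelet libraries (circles) and 15 PBMC libraries (squares), with the mean as a point and the lowest to highest library as a line; a left-pointing marker stands for a lowest library at 0. Tgfb1 is highest in both tissues, at 115.7 in platelets and 39.5 in PBMCs, and Angpt1, Pdgfa and Igf1 in platelets lie to the right of their PBMC lines without overlap.

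The tissues were compared over all 30 libraries with edgeR's quasi-likelihood test, with group as a covariate and a Benjamini-Hochberg adjusted P under 0.05 as the call. In this comparison 81.0% of the 16498 genes tested were called, 5907 higher in platelets and 7457 lower, so that a call alone says little about a gene. Of the members, 6 were higher in platelets, 2 were lower and 2 were not called. Igf1 was too low to be tested within PBMCs and Egf within platelets, so that both entered this comparison only through the tissue in which they were high, and their direction was set by the filter on low counts. Their values are a description, with no test. The scaling matters for genes with small differences: scaled by total count, or by total count without hemoglobin genes, the median of all genes moved from -0.17 to -1.38 and -1.24 on the log2 scale, and values are read against that shift.

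Igf1, Pdgfa and Angpt1 were far higher in platelets under every scaling. Igf1, insulin-like growth factor 1, which is known to be made mainly by liver, had 13 to 65 counts in each platelet library and 0 to 14 in each PBMC library, and its log2 fold change was 4.65. Pdgfa was 9.64 to 112 CPM in platelets and 0.560 to 3.94 CPM in PBMCs, a log2 fold change of 4.32 (SE 0.271, adjusted P = 5.12e-15). Angpt1 was 70.6 to 314 CPM in platelets and 2.45 to 13.4 CPM in PBMCs, with a log2 fold change of 4.23 (SE 0.250, adjusted P = 1.58e-15). For each of the 3, the lowest platelet library lay above the highest PBMC library, and the values were still 3.46, 3.04 and 3.00 under total count scaling.

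Tgfb1, a cytokine secreted in a latent form that both platelets and leukocytes make, was higher in platelets by 1.55 on the log2 scale (SE 0.170, adjusted P = 1.15e-09), but only by 0.23 under total count scaling, where it was no longer called. Vegfb, a ligand of the receptor Flt1, was higher by 0.40 (SE 0.145, adjusted P = 0.0129) and turned to -0.76 and -0.62 under the other scalings. Pdgfb, the B chain of platelet-derived growth factor, was higher by 0.38 (SE 0.123, adjusted P = 0.00630) and turned to -0.85 and -0.71. The direction of Vegfb and Pdgfb between the tissues is thus set by the scaling. Of the genes not called, Vegfc, a growth factor for lymphatic vessels, had a value of 0.08 (SE 0.188, adjusted P = 0.694) that turned to -1.14 and -1.01. Vegfa, the main growth factor of blood vessels, had a value of -0.48 (SE 0.276, adjusted P = 0.106), and -1.74 and -1.57 under the other scalings, where it was called.

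Hgf and Egf were lower in platelets under all 3 scalings. Hgf, hepatocyte growth factor, the ligand of Met, was 0.0892 to 2.31 CPM in platelets and 4.91 to 10.9 CPM in PBMCs, and its log2 fold change was -3.13 (SE 0.251, adjusted P = 1.22e-12). Egf, epidermal growth factor, was 0 to 1.19 CPM in platelets and 1.45 to 3.83 CPM in PBMCs, and its log2 fold change was -1.94. The ranges of the tissues did not overlap for either gene. Summed monocyte markers were 1009 to 5013 CPM in platelets and 2018 to 4516 CPM in PBMCs, but most of these sums was Lyz2 (means of 2491 and 2554 CPM), whereas the monocyte receptor gene Csf1r averaged 48.1 CPM in platelets, far below the 370.6 CPM of PBMCs. The share of the platelet Hgf and Egf counts that came from leukocytes was not tested.

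**Figure D2:**
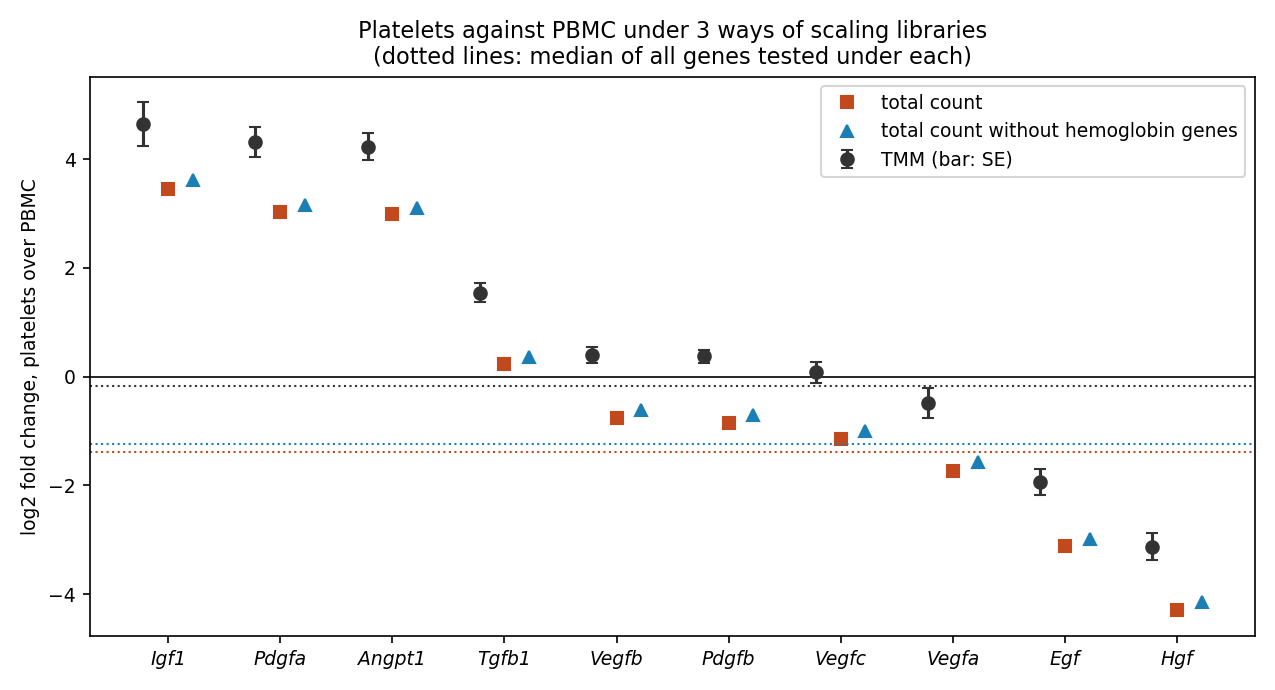
Log2 fold change of each gene, platelets over PBMCs, under TMM scaling (black, with SE), total count scaling (red squares) and total count without hemoglobin genes (blue triangles); dotted lines give the median of all genes tested under each. Igf1, Pdgfa and Angpt1 lie at 3.00 to 4.65 and Egf and Hgf below -1.9 over the 3 scalings, while Vegfb, Pdgfb and Vegfc change sign.

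A ratio within a library does not depend on how libraries are scaled. Counts of each member were therefore set against 1000 counts of the 15 platelet markers of the same library, a measure chosen after the values had been seen. For Angpt1 the median ratio was 3.94 in PBMCs (range 1.58 to 5.52, n = 15) and 3.98 in platelets (1.08 to 6.52), and for Pdgfa it was 1.24 (0.367 to 1.76) and 1.31 (0.148 to 1.94). At the median, both genes thus stood to platelet markers in PBMC libraries about as they did in platelet libraries, with ratios of the medians of 0.990 and 0.950. The PBMC library with the least platelet marker RNA, C group replicate 3 at 623 CPM, also had the lowest Angpt1 (2.45 CPM) and the lowest Pdgfa (0.560 CPM) of the tissue. The one with the most, O group replicate 1 at 7913 CPM, had the highest Angpt1 (13.4 CPM) but a middling Pdgfa (2.91 CPM). The part of platelet RNA in the PBMC levels of both genes was not tested.

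The other members stood apart from this proportion. The median of Tgfb1 per 1000 marker counts was 90.3 in PBMCs and 12.01 in platelets, a ratio of 7.52, and the ratio was 14.8 for Pdgfb, about the same for Vegfb, 19.4 for Vegfc, 25.5 for Vegfa, 134 for Egf and 159 for Hgf. Igf1 had a ratio of 0.345, with 0 counts in 5 of 15 PBMC libraries. Within platelets, Tgfb1 followed the markers closely: its level ran from 247 to 1099 CPM, but its ratio to the markers only from 8.91 to 15.9.

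**Figure D3:**
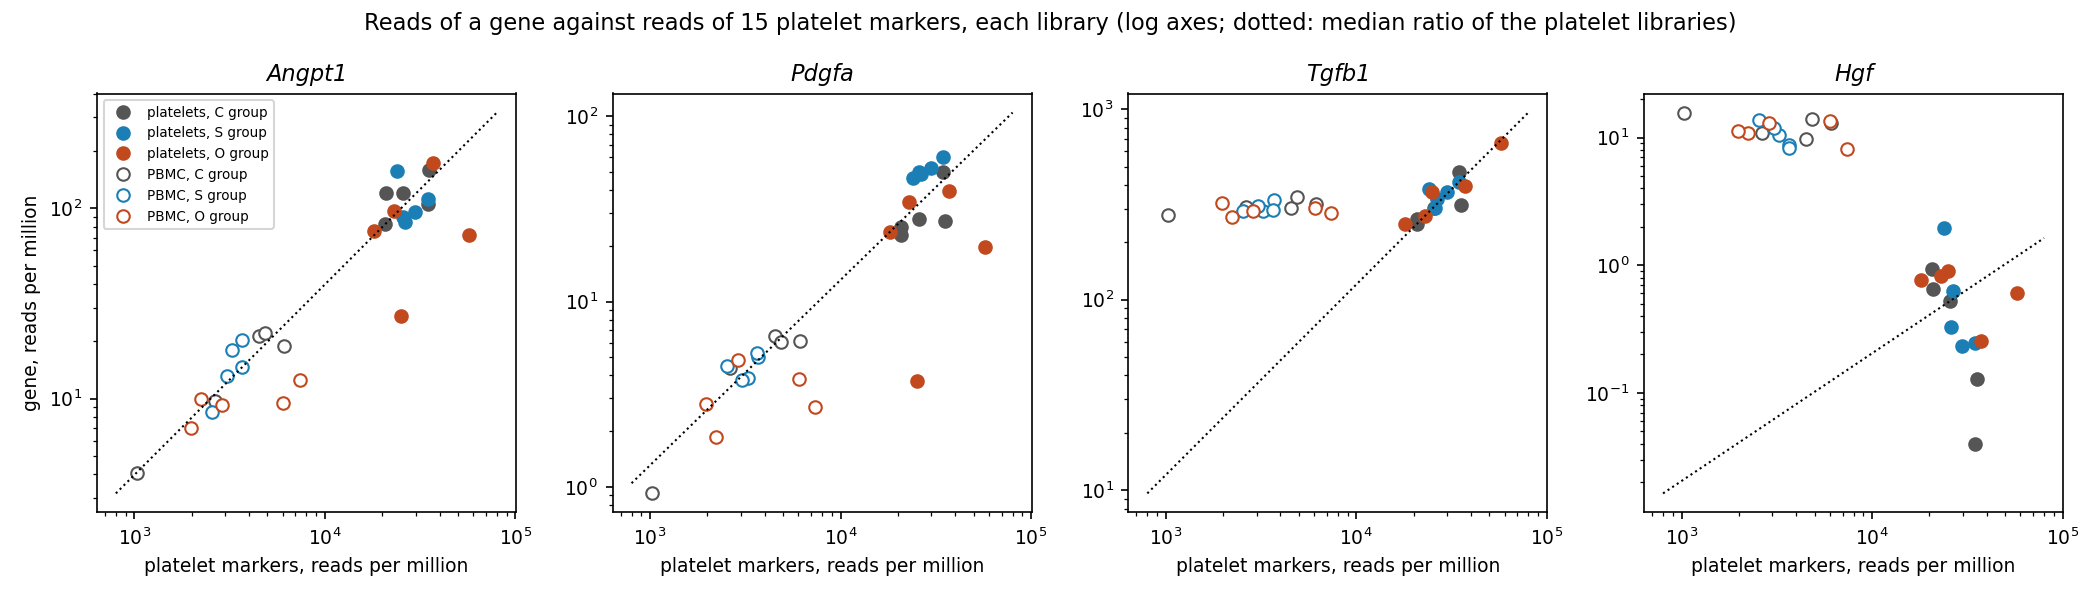
Reads per 1000000 of Angpt1, Pdgfa, Tgfb1 and Hgf against those of 15 platelet markers in each library (log axes; filled, platelets; open, PBMCs; dotted line, median ratio of the platelet libraries). Angpt1 and Pdgfa of most PBMC libraries lie along the line drawn from platelets, whereas Tgfb1 and Hgf of all PBMC libraries lie above it, and S group platelets (filled blue) lie above the line for Pdgfa.

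Between groups, platelets gave few calls among the members. For each pair of groups, the quasi-likelihood model of edgeR was fitted to those 10 libraries, and an unadjusted P under 0.05 was the call. In S group against C group 1 of the 8 members tested was called, beside 6.42% of 13268 genes, in S group against O group 1 of 9, beside 13.9% of 13306, and in O group against C group 0 of 9 by edgeR and 0 by DESeq2, beside 4.79% of 13270. None of the members passed an adjusted P under 0.05 in any comparison within a tissue, by edgeR or by DESeq2. Egf was too low to be tested in platelets, and Hgf was too low in S group against C group.

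Pdgfa was the member called in S group against O group. Its platelet levels were 71.1, 79.8, 107.7, 56.1 and 53.0 CPM in the 5 pools of S group, 9.64, 72.2, 48.9, 32.7 and 23.5 CPM in those of O group, and 112.4, 45.1, 29.7, 44.3 and 38.9 CPM in those of C group. All pools of S group except replicates 4 and 5 lay at or above 70 CPM, O group overlapped them by replicate 2, and C group by replicate 1, which stood alone. Against O group the log2 fold change was 1.07 (SE 0.398, adjusted P = 0.307 by edgeR's quasi-likelihood test with Benjamini-Hochberg adjustment). Without O group replicate 5 it was 0.94, and without S group replicate 3 it was 0.86, so that the call was lost in both cases, while without O group replicate 1, whose erythroid share was 41.2%, it was called.

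Against C group Pdgfa was not called, with a log2 fold change of 0.48 (SE 0.311, adjusted P = 0.786). The value depended on C group replicate 1, the library with the highest Pdgfa of all 30, without which it was 0.92 and was called, and on S group replicate 3, without which it was 0.30. It was also called under total count scaling (0.75, beside a shift of 0.20 in the median of all genes) and under total count without hemoglobin genes (0.65, beside a shift of 0.11). In O group against C group the value was -0.60 (SE 0.464, adjusted P = 0.912), but -0.11 without C group replicate 1, -0.36 without O group replicate 1 and -0.95 without O group replicate 2, none of them called.

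Set against the platelet markers of the same library, Pdgfa separated S group from both others. The ratio was 1.75, 1.94, 1.74, 1.85 and 1.93 per 1000 marker counts in S group, 1.44, 0.773, 1.10, 1.09 and 1.21 in C group, and 0.148, 1.06, 1.51, 0.345 and 1.31 in O group. Every library of S group lay above every library of C group and of O group, and S group varied least, with an SD of 0.0947 beside 0.240 and 0.600. The mean log2 ratio was higher in S group than in C group by 0.74 and than in O group by 1.52. Each difference had p = 0.00794 (exact permutation test, two-sided), the smallest that 252 arrangements of 5 against 5 can give. Benjamini-Hochberg adjustment over the 9 comparisons made of Tgfb1, Pdgfa and Angpt1 gave 0.0357. The other members were not tested on this ratio. The adjusted value thus depends on which genes were entered, and it does not cover all members. The same separation, S group above, was found for 0.874% of genes against C group and for 0.782% against O group, and it held for Pdgfa with each of the 15 markers left out in turn. Without S group replicate 2, 4 or 5 the exact permutation p against O group rose above 0.05, at values of 1.51, 1.52 and 1.51, with the libraries left still apart. The size of the difference rested on O group replicate 1, without which it was 0.995 (range 0.995 to 1.83 with single libraries left out). As the measure was chosen after the values had been seen, this is a description of these pools. T cell markers separated the same groups: they summed to 340 to 447.5 CPM in every S group platelet library, above the 304 to 337 CPM of C group and the 170 to 314 CPM of O group, and the part of lymphocyte RNA in the Pdgfa result was not tested.

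Pdgfa shares its locus with 6330403L08Rik on the opposite strand. The strand setting of the counting is not given in the sources used here, so it is not known how reads were assigned where the pair overlaps. The antisense gene had 38.3 ± 21.3 CPM (SD, n = 15) in platelets and 2.46 ± 0.961 CPM in PBMCs. It ranged from 28.4 to 56.6 CPM in S group platelets, from 20.7 to 72.7 CPM in C group and from 7.91 to 90.3 CPM in O group, so that its groups overlapped. It was highest in O group replicate 2, the O group library with the most Pdgfa.

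Vegfb was the member called in S group against C group of platelets. Its levels were 3.80, 2.63, 4.37, 5.28 and 3.34 CPM in S group pools, 3.03, 6.61, 8.24, 5.99 and 6.86 CPM in C group, and 2.70, 3.45, 3.80, 3.56 and 6.43 CPM in O group. Apart from replicate 1, every C group library lay above every S group library, and apart from replicates 1 of C group and 5 of O group the same was so for O group. Between S group and C group the log2 fold change was -0.64 (SE 0.286, adjusted P = 0.769), from 25 to 116 counts per library. Between O group and C group it was -0.67 (SE 0.313, adjusted P = 0.910) and missed the threshold, but it was called with the replicate number as a block (-0.68), in a joint fit of the 3 groups (-0.65), and without O group replicate 5 (-0.90) or C group replicate 1 (-0.82). The call of S group against C group was also lost under the block (-0.60), total count scaling (-0.46) and total count without hemoglobin genes (-0.56). Leaving out 1 library gave -0.81 to -0.48 and ended it for 8 of the 10 libraries, C group replicates 2, 3, 4 and 5 and S group replicates 1, 2, 3 and 5.

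Angpt1 was 129.5, 142.5, 200, 96.4 and 178.8 CPM in S group platelets, 239, 263, 107.4, 188.8 and 185.8 CPM in C group, and 70.6, 314, 136.8, 119.6 and 75.0 CPM in O group. O group replicate 2 held the highest level and the other libraries of O group lay at or below 136.8 CPM. None of its comparisons was called, with log2 fold changes of -0.35 in S group against C group (SE 0.241, adjusted P = 0.796), -0.52 in O group against C group (SE 0.375, adjusted P = 0.910) and 0.17 in S group against O group (SE 0.361, adjusted P = 0.864). Single libraries decided these values. Without O group replicate 2 the value against C group was -0.98 and that of S group against O group 0.62, without C group replicate 3 that of S group against C group was -0.49, each past the threshold, and without O group replicate 1 that of S group against O group turned to -0.02.

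Tgfb1, the most abundant of these transcripts, ran from 386 to 739 CPM in S group platelets, from 345 to 1062 CPM in C group and from 247 to 1099 CPM in O group. The groups overlapped over most of their range. Set against platelet markers, its mean was 12.9 ± 1.69 per 1000 marker counts in S group, 11.8 ± 1.76 in C group and 12.6 ± 1.64 in O group (SD, n = 5), differences of at most 0.14 on the log2 scale with p of at least 0.429 in the exact permutation test.

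Pdgfb, Vegfa, Vegfc and Igf1 were not called in platelets. Pdgfb was even across all 15 platelet libraries, at 8.46 to 16.7 CPM. Vegfa ran from 1.35 to 1.97 CPM in S group, from 0.562 to 2.92 CPM in C group and from 0.575 to 5.21 CPM in O group, where replicate 1 was highest. Vegfc ranged from 0.386 to 2.73 CPM and Igf1 from 1.16 to 4.23 CPM over the 15 platelet libraries, with all 3 groups overlapping.

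**Figure D4:**
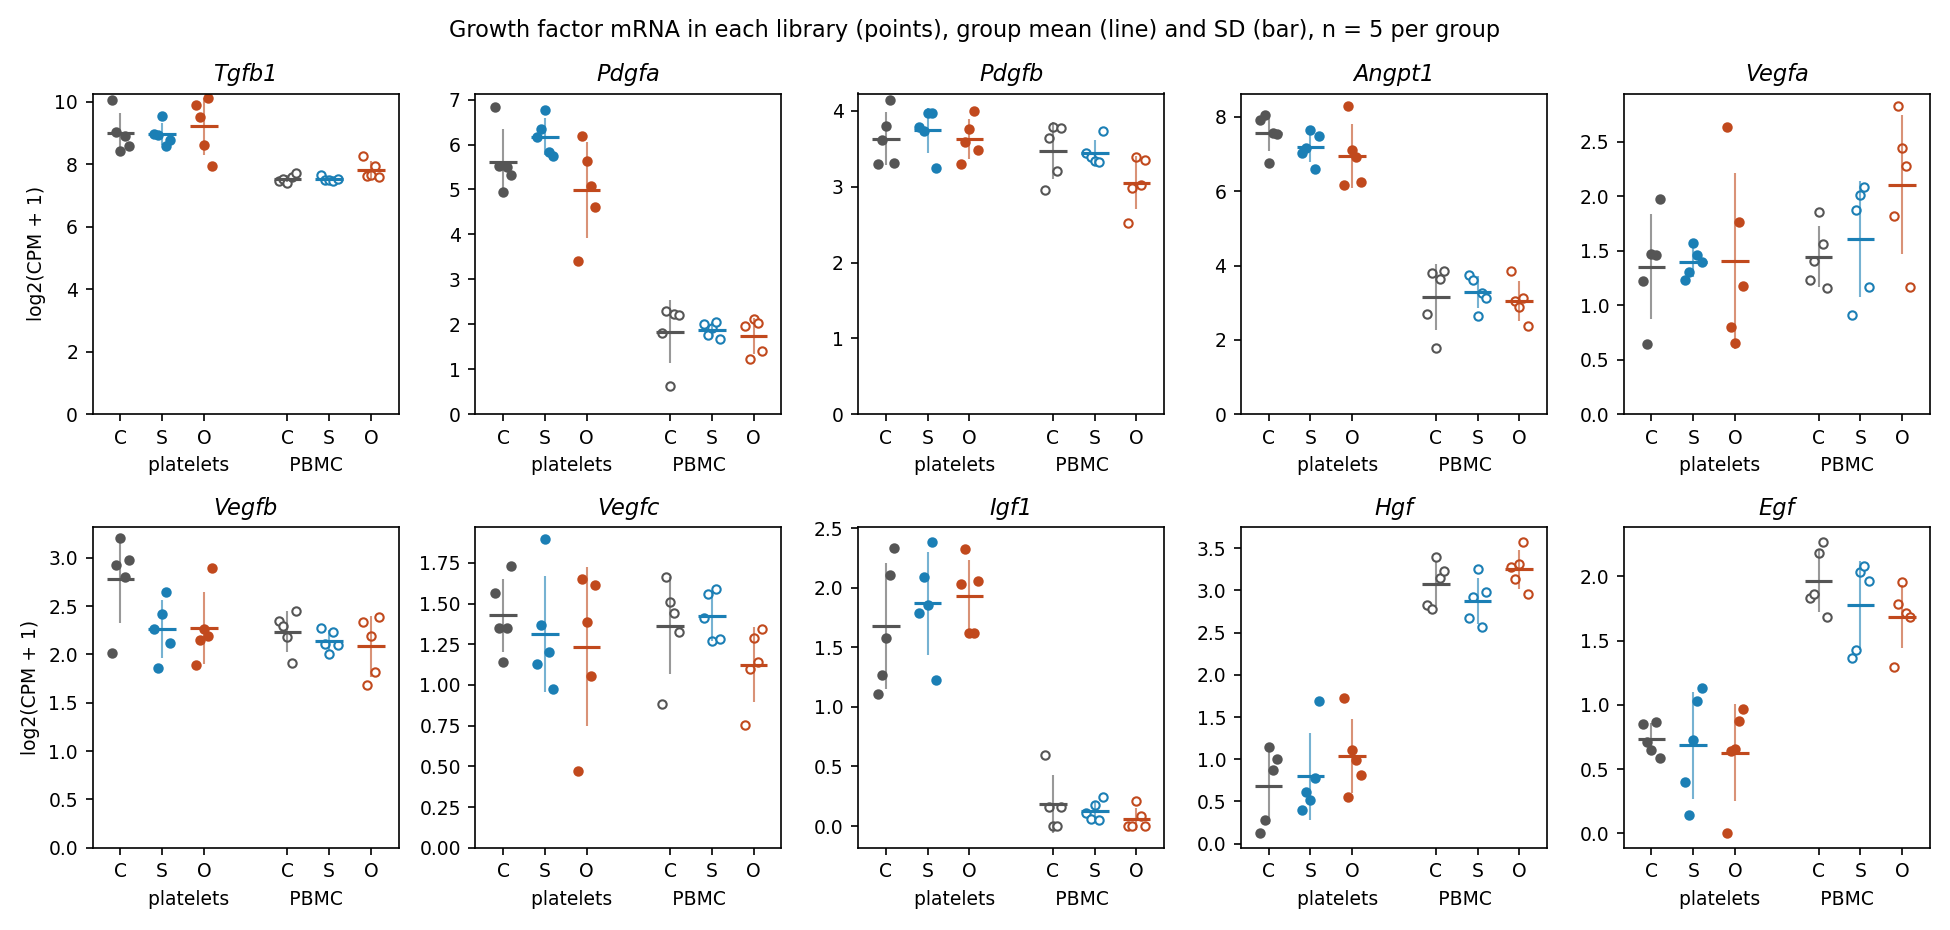
Level of each gene as log2(CPM + 1) in every library (points; filled, platelets; open, PBMCs; gray, C group; blue, S group; red, O group), with the group mean (line) and SD (bar), n = 5 per group. Pdgfa in platelets is highest as a group in S group, at 53.0 to 107.7 CPM, and Vegfa in PBMCs is highest as a group in O group.

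In PBMCs no member was called in S group against C group, 0 of 9 by edgeR and 0 by DESeq2, beside 2.64% of 15139 genes. In S group against O group 2 of 9 were called, beside 12.2% of 14686 genes, and in O group against C group 2 of 9, beside 11.9% of 14726. By DESeq2 these counts were 3 and 3, with Pdgfb added. Igf1 was too low to be tested.

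Vegfa was 2.53, 6.12, 4.43, 3.85 and 1.25 CPM in O group PBMCs, 1.35, 1.66, 2.63, 1.95 and 1.23 CPM in C group and 0.886, 2.67, 3.05, 3.24 and 1.25 CPM in S group. The 3 highest levels were those of O group replicates 2, 3 and 4, while O group replicate 5 lay within C group. The log2 fold change of O group against C group was 1.09 (SE 0.380, adjusted P = 0.346). It was called with each library left out, at 0.83 to 1.32, and fell to 0.70, which was not called, under total count scaling, where the median of all genes shifted by -0.37. That of S group against O group was -0.77 (SE 0.451, adjusted P = 0.500), not called with all libraries and no block. It was called with the replicate number as a block and without O group replicate 5 (-0.999). Erythroid genes took 6.76% to 27.3% of the counts of O group PBMCs and 3.38% to 9.78% in C group, with O group replicate 5 the lowest of O group in both, and the part of the erythroid RNA in this result was not tested.

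Tgfb1 was 306, 196.4, 202.5, 243 and 190.7 CPM in O group PBMCs, 174, 182.5, 168.9, 192.5 and 208.5 CPM in C group and 202.3, 181, 180.3, 176 and 181.4 CPM in S group. O group replicates 1 and 4 were the highest, and the rest overlapped. Its log2 fold change was 0.37 in O group against C group (SE 0.152, adjusted P = 0.386) and -0.38 in S group against O group (SE 0.150, adjusted P = 0.366), but these turned to -0.08 and 0.050 under total count scaling, beside shifts of -0.37 and 0.36 in the median of all genes. They were not called with hemoglobin genes left out of the total (0.11 and -0.13, beside shifts of -0.20 and 0.195), and the first was lost with the replicate number as a block (0.33). Without O group replicate 1 the value against C group was 0.21 and was not called, and either call was lost with several other single libraries left out (6 of 10 in all against C group, 4 of 10 against S group). O group replicates 1 and 4 also had the most platelet marker RNA of the tissue, 7913 and 4869 CPM, and the 2 highest neutrophil marker levels, 4081 and 3245 CPM. Their erythroid shares, 27.3% and 20.3% of counts, were the 2 highest as well. The part of these cells in the result was not tested.

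Hgf was 5.36, 6.56, 8.52, 4.91 and 6.92 CPM in S group PBMCs and 8.72, 7.80, 8.92, 10.9 and 6.74 CPM in O group, overlapping by S group replicates 3 and 5 and O group replicates 2 and 5. Its log2 fold change in S group against O group was -0.48 (SE 0.185, adjusted P = 0.353), and it was not called without O group replicate 4 (-0.37), S group replicate 1 (-0.41) or S group replicate 4 (-0.40), nor with the replicate number as a block (-0.48) or under total count scaling (-0.09), with or without hemoglobin genes (-0.26 without them). In O group against C group it was 0.25 (SE 0.177, adjusted P = 0.572) and turned to -0.15 under total count scaling.

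Pdgfb ran the other way, with 4.74, 6.88, 9.48, 7.09 and 9.19 CPM in O group PBMCs, 6.77, 11.5, 12.8, 8.25 and 12.7 CPM in C group and 9.87, 9.52, 9.10, 9.05 and 12.3 CPM in S group. O group replicate 1 was lowest, and the next lowest were C group replicate 1 and O group replicates 2 and 4. It just missed the threshold in S group against O group (0.35, SE 0.164, adjusted P = 0.415) and in O group against C group (-0.42, SE 0.215, adjusted P = 0.456), and was called in both by DESeq2, with the replicate number as a block, under total count scaling (0.67 and -0.75, beside shifts of 0.36 and -0.37 in the median of all genes) and under total count without hemoglobin genes (0.52 and -0.59). The first was also called with no filter on low counts, and the second in a joint fit of the 3 groups. The remaining members, Pdgfa, Angpt1, Vegfb, Vegfc and Egf, were not called by edgeR's fit to all libraries of any pair of PBMC groups under TMM scaling and the filter on low counts. Vegfc had a value of 0.42 (SE 0.207) in S group against O group and was called there without O group replicate 5.

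**Figure D5:**
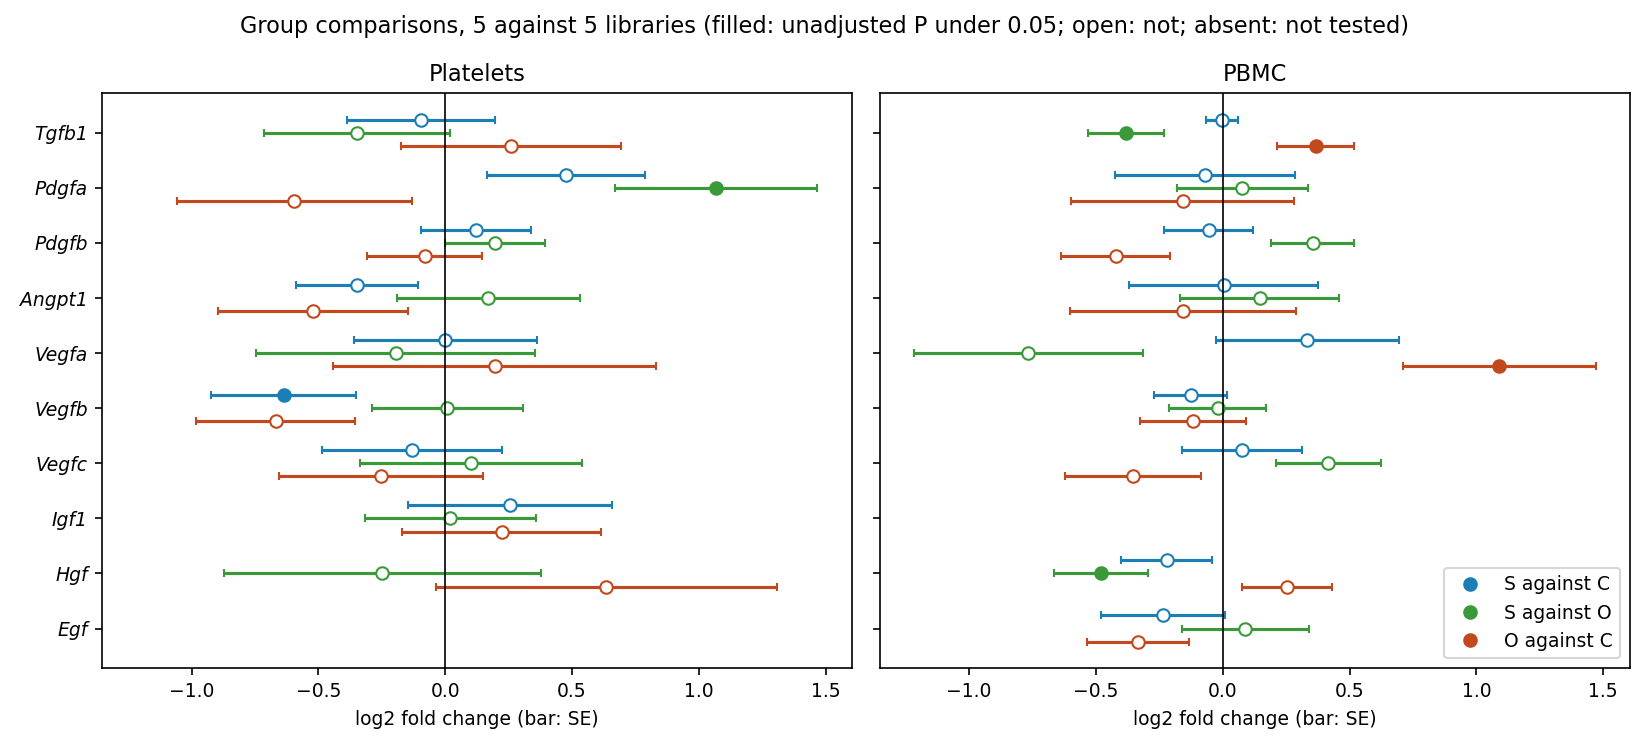
Log2 fold change with its SE for each gene in the 3 comparisons of groups, in platelets (left) and PBMCs (right), 5 against 5 libraries; filled points have an unadjusted P under 0.05, open points do not, and genes too low to be tested are left out. Filled are Pdgfa (1.07) and Vegfb (-0.64) in platelets and Tgfb1, Vegfa and Hgf in PBMCs.

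Whether platelets and PBMCs differed in their response was tested as an interaction over all 30 libraries. None of the 10 members was called in S group against C group, S group against O group or O group against C group, by edgeR or by DESeq2, beside 5.38%, 13.6% and 6.59% of 16498 genes. For Vegfb in S group against C group the platelet change minus the PBMC change was -0.53 on the log2 scale (SE 0.348, adjusted P = 0.974), and for Pdgfa in S group against O group it was 0.82 (SE 0.605, adjusted P = 0.564). For Hgf in S group against O group the difference was 0.16 (SE 0.614, adjusted P = 0.932), and for Vegfa in O group against C group -0.83 (SE 0.680, adjusted P = 0.859). Without platelet O group replicate 1 the latter was -1.57 and was called, as was Vegfa in S group against O group. In O group against C group Vegfb was called without platelet O group replicate 5 or platelet C group replicate 1, and Pdgfb without platelet C group replicate 4. For Igf1 in O group against C group the difference was 1.95 (SE 1.04). Igf1 was too low to be tested within PBMCs, so its values here are a description. They rest on 4 counts in O group PBMCs and 20 in C group PBMCs, 14 of the latter in replicate 1. Without that library the value was 0.69, and without PBMC O group replicate 3 it was 3.22. The value passed the threshold without that O group library, PBMC C group replicate 3 (2.25) or 4 (2.26) or platelet C group replicate 5 (2.23), and under total count scaling (2.35), which is not read as a test result. With all libraries and TMM scaling, no change called in one tissue was thus shown to differ from that in the other.

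The genes whose platelet levels ran most like those of a member were ranked by Spearman's rho over the 15 platelet libraries among genes with a mean of at least 5 CPM, as a description of libraries that share depth and composition. For Tgfb1 they were Lgals3bp (0.986), Slc2a9 (0.982) and Emc10 (0.979), and for Pdgfa Wnk4 (0.961), the kinase gene Src (0.950) and Gata2 (0.946), which encodes a transcription factor of blood progenitors. For Angpt1 they were Gm37416 (0.979), Pkd2l2 (0.975) and the protease gene Adam9 (0.975). For Pdgfb they were Vps4a (0.914), Sox18 (0.836) and Smad6 (0.782). The values were lower for the low genes: 0.875 at most for Vegfb (Isy1, Rbm45, Rtcb), 0.854 for Igf1 (Klf9, Pgm5, Dab2), 0.832 for Vegfc (Cebpg, Col6a1, Smurf2) and 0.768 for Vegfa (Pcx, Cltb, St5).

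The partners of these factors were counted in 5 lists: receptors, other ligands of the families, proteins of latency, processing and binding, transducers of the TGF-beta signal, and inhibitors of angiogenesis. Between tissues, platelets were higher for 9 of 19 receptors tested and lower for 9, and higher for 9 of 10 inhibitors and lower for 1, beside 5907 higher and 7457 lower of all 16498 genes tested. Some of these genes, Tek, Pdgfra, Ccn2, Fgf1, Pdgfd, Igfbp3, Igfbp5, Igfbp7, Sparc and Timp3 among those named, were too low to be tested within PBMCs, and Nrg1, Spint1 and Bambi within platelets, so that the filter set their direction between the tissues, and the counts are a description. The receptor of Angpt1, Tek, was higher in platelets by 6.42 (SE 0.406), its relative Tie1 by 5.09 (SE 0.269) and the Pdgfa receptor Pdgfra by 4.56 (SE 0.587), all 3 also being genes of endothelial or stromal cells. The summed level of 6 endothelial markers, Tie1 among them and most of it Esam, was 214.5 to 734 CPM in platelets and 8.13 to 38.2 CPM in PBMCs. The Hgf receptor Met was lower in platelets by 2.79 (SE 0.203), as were Igf2r (-2.08, SE 0.151) and Tgfbr1 (-2.02, SE 0.169).

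Among other ligands 5 of 10 tested were higher in platelets and 3 lower, led by Ccn2, a matrix protein induced by TGF-beta (7.26, SE 0.430), Fgf1 (6.89, SE 0.438) and Pdgfd (5.26, SE 0.445), and by Mst1 (-2.31, SE 0.202), Nrg1 (-2.22, SE 0.345) and Fgf2 (-1.56, SE 0.180). Among the proteins of latency, processing and binding 11 of 21 were higher and 6 lower. The IGF binding proteins Igfbp5 (8.44, SE 0.387), Igfbp3 (6.63, SE 0.337) and Igfbp7 (6.04, SE 0.307) led upwards, and Nrros (-1.90, SE 0.118), Itgav (-1.81, SE 0.119) and Spint1 (-1.52, SE 0.614) downwards. Of the 13 transducers 3 were higher, Smad6 (2.94, SE 0.282), Smurf2 (0.45, SE 0.0820) and Ski (0.22, SE 0.0782), and 9 were lower, led by Bambi (-2.61, SE 0.316), Smad7 (-1.45, SE 0.118) and Tgif1 (-1.45, SE 0.167). The inhibitors Sparc (7.55, SE 0.334), Timp3 (5.43, SE 0.327) and Pf4 (4.81, SE 0.357), the last also a platelet marker, were the highest, and Timp2 was the one that was lower (-0.29, SE 0.114). As with the members, positive differences smaller than the shift in the median of all genes can turn with the scaling, which was not tried for the partners.

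In S group against C group of platelets, where 6.42% of all genes were called (569 higher and 283 lower), 3 of 19 proteins of latency, processing and binding rose and none fell: Nrros, which holds latent TGF-beta on myeloid cells (0.57, SE 0.227), the protease gene Furin (0.49, SE 0.216) and Igfbp6 (0.80, SE 0.371). Also called were Mst1 (1.15, SE 0.456), 1 of 7 other ligands, Smad3 (0.39, SE 0.160), 1 of 12 transducers, and, of 10 inhibitors, Timp2 (0.51, SE 0.185) and, falling, Thbs2 (-1.23, SE 0.524). None of 19 receptors was called. T cell markers were higher in every S group library than in every C group library, as given for Pdgfa, and their part in these calls was not tested.

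In S group against O group of platelets, where 13.9% of all genes were called (962 higher and 887 lower), 4 of 18 receptors rose and 1 fell. The rising ones include the TGF-beta receptors Tgfbr3 (1.01, SE 0.309), Acvrl1 (0.63, SE 0.227) and Tgfbr2, and Igf2r (0.82, SE 0.305), and the falling one was Flt1, the receptor of Vegfb. Of 19 proteins of latency, processing and binding 3 rose, Spint2 (1.05, SE 0.279), St14 (1.21, SE 0.398) and Nrros (0.68, SE 0.251), the first pair being known as an inhibitor and a protease of the pathway that activates Hgf. Of 9 inhibitors 3 fell, Col18a1, whose fragment is endostatin (-3.55, SE 0.884), Thbs2 (-1.71, SE 0.700) and Vash1 (-1.19, SE 0.500). Zfyve9 was the 1 of 12 transducers called (-0.44, SE 0.201), and 0 of 8 other ligands were. In O group against C group, where 4.79% of all genes were called, 2 of 19 receptors and 3 of 10 inhibitors were called and none of the 7 other ligands, 19 proteins of latency, processing and binding or 12 transducers. The same Col18a1 (3.13, SE 0.900), Vash1 (1.97, SE 0.623) and Flt1 (0.78, SE 0.290) rose, and Sparc (-0.72, SE 0.305) and Tgfbr3 (-0.81, SE 0.373) fell, with both comparisons sharing the O group libraries. The smallest adjusted P among all these partners in platelets was 0.225. Other cells moved with these groups: neutrophil markers summed to 521 to 5117 CPM in O group platelets, above the 291 to 497 CPM of every S group library, B cell markers to 811 to 1839 CPM beside 1591 to 2896 CPM, T cell markers to 170 to 314 CPM, below the 340 to 447.5 CPM of every S group library, and their part in the partner genes and in Pdgfa was not tested.

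In PBMCs none of the partners was called in S group against C group. In S group against O group, where 651 of all genes tested were called higher and 1145 lower, 2 of 16 receptors fell, Nrp2 (-0.31, SE 0.118) and Acvrl1 (-0.67, SE 0.276), and so did the inhibitors Thbs1 (-1.30, SE 0.333) and Col18a1 (-2.95, SE 1.05), 2 of 5, and Nrg1, 1 of 6 other ligands. Of 17 proteins of latency, processing and binding Spint2 (0.33, SE 0.0947), Ltbp4 (0.50, SE 0.208) and Igfbp4 rose and Furin (-0.35, SE 0.130) fell, and of 13 transducers Pmepa1 rose (0.55, SE 0.190). In O group against C group, which shares the O group libraries and where 1113 of all genes tested were called higher and 646 lower, 4 of 18 proteins of latency, processing and binding, 2 of 16 receptors, 1 of 13 transducers, 1 of 5 inhibitors and 0 of 5 other ligands were called. Spint2 (-0.35, SE 0.0861), Igfbp4 (-0.50, SE 0.161), Ltbp4 and Pmepa1 (-0.48, SE 0.154) fell, as did Igf2r (-0.25, SE 0.108), and Furin (0.38, SE 0.135), Acvrl1 (0.57, SE 0.254) and Thbs1 (0.99, SE 0.437) rose. The smallest adjusted P among them was 0.296. Neutrophil markers summed to 313 to 4081 CPM in O group PBMCs, 251 to 1511 CPM in C group and 262 to 2268 CPM in S group. T cell markers summed to 443 to 650 CPM in O group PBMCs, below the 657 to 934 CPM of every S group library, and NK cell markers to 139 to 248 CPM, below 277 to 321 CPM. Erythroid markers summed to 40140 to 293500 CPM in O group PBMCs, 19120 to 59300 CPM in C group and 19840 to 55530 CPM in S group. The part of these cells in the partner genes and in the calls of members was not tested.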

How the data were processed

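Per the labels and the study's methods, reads were cleaned, aligned with HISAT2 2.0.5 and counted per gene with featureCounts 1.5.0-p3, and the authors deposited raw read counts per Ensembl gene, not normalized, for 15 platelet and 15 PBMC libraries. DESeq2 1.16.1 is listed among their tools. Their processing notes list build mm9. Positions printed here are those of GRCm38, matched by gene identifier (54495 of 54532 found in GENCODE mouse release 21). Libraries were grouped by title, because platelet samples carry PBMC as their cell type.

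R 4.3.3, edgeR 4.0.16 (filterByExpr, TMM, quasi-likelihood F test, two-sided) and DESeq2 1.42.0 were used. An SE is the log2 fold change divided by the square root of F. The methods were tested on simulated data. The members and gene lists were chosen with earlier results of these data known. All members are named. From each list the genes named are up to 3 with the smallest P under 0.05 within a tissue, or up to 3 in each direction with the largest change between tissues. Tgfbr2, Flt1, Igfbp4, Ltbp4, Esam, Lyz2 and Csf1r were also named where a count or sum needed them, after their values were seen. Every tested gene entered each fit. Alternatives were leaving out single libraries, DESeq2, RLE size factors, no filter on low counts, a joint fit of the 3 groups and a block for the replicate number. The unadjusted threshold within tissues follows the study's methods. Total count scaling with and without hemoglobin genes, and ratios to platelet markers, were added after seeing the data.

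Same-numbered libraries of S group and C group PBMCs deviated together from their group means (correlations 0.274 to 0.565 in 5 of 5 pairs). In the other pairs of groups not every correlation was over 0.1. For platelet O group and C group they were -0.0507 to 0.413, and 4 of 5 O group libraries correlated best with the C group library of their own number. For PBMC S group and O group they were 0.0944 to 0.398, also with 4 of 5 best. Between the tissues in O group they were 0.0631 to 0.609, with 3 of 5 best. The remaining pairs had 0 or 1 such best match. No 2 libraries held identical values.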

Additional observations from a re-analysis of the deposited data

Results flagged for a closer look

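Of the 60 sets of 5 libraries (10 genes, 3 groups, 2 tissues), 7 held a highest library that stood apart from the other 4 by Dixon's criterion at the 95% level, which chance alone exceeds in about 5% of such sets. Tgfb1 was 1062 CPM in platelet C group replicate 1 (next 519.5 CPM) and 202.3 CPM in PBMC S group replicate 1 (next 181.4 CPM). Pdgfa was 112.4 CPM in platelet C group replicate 1, where the next library of the group had 45.1 CPM, so that both genes stood apart in the same library. Angpt1 was 314.1 CPM in platelet O group replicate 2 (next 136.8 CPM). Pdgfb was 12.34 CPM in PBMC S group replicate 5 (next 9.87 CPM). Hgf was 2.226 CPM in platelet S group replicate 5 (next 0.717 CPM), and Igf1 was 0.5125 CPM in PBMC C group replicate 1 (next 0.119 CPM), both from few counts. In that platelet C group replicate 1, Tgfb1 and Pdgfa per 1000 platelet marker counts were 13.6 and 1.44.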

How the results depend on the processing

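Of 1037 alternative values for the log2 differences printed, 950 kept direction and side of the threshold, 16 reversed, 34 became and 37 ceased to be called. Many belong to the comparison of tissues, where leaving out 1 of 30 libraries changed a call only for Vegfa, so this share says little about calls within a tissue. There, leaving out 1 of 10 libraries ended the call of Vegfb in platelet S group against C group 8 times. In PBMC O group against C group it ended that of Tgfb1 6 times and that of Vegfa 0 times. Within a tissue no call of a member rests on more than an unadjusted P, and the pools number 5 per group. Self-tests of S group against C group recovered 80 of 94 genes changed by 1 on the log2 scale in platelets at an unadjusted P under 0.05 and 35 at an adjusted one (13018 genes), and 84 and 70 of 90 in PBMCs (14909 genes).

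The replicate block gave 0 members in platelet S group against C group (Vegfb -0.60) and 1 in O group against C group (Vegfb -0.68). For PBMC S group against C group, where the numbers pair the libraries, it gave 0. In the other pairs the numbers matched libraries in part or not at all. It also called Vegfa in PBMC S group against O group (-0.75), but not Hgf there or Tgfb1 in O group against C group. One fit of all 3 groups gave 1 in platelet O group against C group. Total count without hemoglobin genes gave 1 in PBMC S group against O group (Pdgfb, with the calls of Tgfb1 and Hgf lost), and total count scaling 1 in the interaction of O group against C group (Igf1, too low to be tested within PBMCs).

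Leaving out 1 library, members called numbered 0 to 2 in platelet S group against C group and in S group against O group, 0 to 1 in O group against C group, 0 to 5 and 1 to 2 in PBMC S group against O group and O group against C group, and 0 to 1 in the interactions of S group against O group and O group against C group. Angpt1 ran from -0.022 to 0.62 in platelet S group against O group, and Hgf from -0.60 to its highest value, 0.69, in the interaction of S group against O group. Tgfb1 per platelet marker counts ran from -0.034 to 0.10 in S group against O group and from -0.0021 to 0.15 in O group against C group, and was -0.018 in the first without Pf4 among the markers.

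Under total count scaling, Tgfb1 was 0.050 in PBMC S group against O group and -0.080 in O group against C group, and Hgf -0.15 in the latter. Between tissues, Vegfb was -0.76, Vegfc -1.14 and Pdgfb -0.85, and without hemoglobin genes -0.62, -1.01 and -0.71. The causes were not tested.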

Other observations

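Replicates 1 and 4 of O group, which the labels give as pools of 3 mice in both tissues, stood apart in their ratio of Angpt1 and Pdgfa to platelet markers, and did so in platelets and in PBMCs. In platelets Angpt1 was 1.08 and 1.26 per 1000 platelet marker counts in these libraries, and 4.63, 4.23 and 4.18 in O group replicates 2, 3 and 5. In PBMCs the same replicate numbers had 1.69 and 1.58 of Angpt1, beside 4.49, 3.21 and 3.54 in replicates 2, 3 and 5. Pdgfa was 0.148 and 0.345 in platelets and 0.367 and 0.630 in PBMCs of replicates 1 and 4, each pair the lowest of its tissue. In platelets, Vegfc was also lowest in this pair (0.00592 and 0.0114), and Vegfb and Pdgfb were among the 3 lowest, while Tgfb1 (14.7 and 11.6) lay within the range of the other libraries. In PBMCs it did not: Tgfb1 (38.7 and 49.96), Pdgfb (0.5995 and 1.456), Vegfb (0.5125 and 0.5184), Vegfc and Egf were also lowest in this pair, whose platelet marker RNA was the highest of O group, so that the low ratios were not particular to Angpt1 and Pdgfa in either tissue. These libraries were noticed after their values had been seen, no test was made, and neither the labels nor the study's methods say whether equal numbers mark the same mice, although the methods took PBMCs from the blood left after platelet isolation and list O group pools of the same sizes for both tissues. Without them the Pdgfa ratio of the remaining O group platelet libraries, 1.06, 1.51 and 1.31, still lay below all of S group.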
